A study of Mus musculus with 6 samples.

Results

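The genes described here are 34 markers of the macrophages that settle in the fetal kidney. Their levels come from whole kidneys of mouse embryos at E13.5. They comprise lysozymes, complement subunits, cytokine and scavenger receptors, Fc receptors with their adaptors, leukocyte membrane proteins, lysosomal proteases and the lineage transcription factor gene Spi1. The members are genes that carry probe sets annotated to them alone, and the brightest probe set by the mean of all arrays stood for each gene. All 34 genes had such a probe set, out of 18193 genes on the array that had one. For 28 of the 34 it passed the filter on low values, a mean over all arrays of at least 5.89 log2. C1qa, Cd163, Cd14, Itgam, Itgb2 and Spi1 fell below it, and are described by their values only.

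The arrays compared 3 Fz4-/- kidney samples with 3 Fz4+/+ samples. Fzd4 encodes Fz4, which Wnt ligands and Norrin bind at the cell surface. The labels name neither the type of mutation nor any further allele, treatment or strain, and leave unsaid how many embryos went into a sample. Both genotypes were taken from the same 3 litters, with 1 sample per litter and genotype, so genotypes can also be compared within a litter. Levels are log2 RMA values, given below in the order of litters 1, 2 and 3, and a difference is Fz4-/- minus Fz4+/+ unless stated otherwise. The ± of a genotype difference is a standard error (SE) from a fit without the litter, so it includes the spread between litters. That of a litter difference comes from a fit with both genotype and litter, so the 2 kinds of SE are not alike.

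Macrophages reach fetal organs from the yolk sac and later from the fetal liver, and depend on the receptor Csf1r and its ligands Csf1 and Il34. They engulf dying cells, digest them in lysosomes, and read antibody and lipid ligands through receptors that signal by way of the adaptors Tyrobp and Fcer1g. PU.1, the product of Spi1, drives much of this gene programme. In whole kidneys these genes read a minor cell population. Fewer macrophages and less RNA per macrophage cannot be told apart in bulk samples.

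Array medians ran from 6.62 to 6.74. With 6 arrays, precision is limited by their number. Fzd4 was far lower in every Fz4-/- sample, at 3.58 to 6.22 against 10.31 to 11.21 on its brightest probe set, in the direction of the labels. The kidney genes Six2, Wt1 and Ret were read on every array, at 7.76 to 8.09, 11.09 to 11.21 and 9.31 to 9.59. The first principal component, which held 70.8% of the variance, set both samples of litter 3 (48.7 and 70.1) apart from those of litter 1 (-36.3 and -33.5). In litter 2 the Fz4-/- sample lay at -0.10 and its Fz4+/+ pair at -48.9. What else differed between litters besides the animals cannot be told apart from the litter.

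No macrophage gene passed the test between genotypes. All 28 tested genes had an adjusted p of 0.999988 in limma, and of 0.999986 with the litter as a block. None of the 28 had an unadjusted p under 0.05, against 0.884% of all 27022 probe sets tested, and 0 of those probe sets passed after adjustment. With the litter as a block 1 of the 28, Cd52, had an unadjusted p under 0.05, against 3.11% of all probe sets. Differences ran from -0.57 for F13a1 to 0.21 for Ms4a7, and F13a1 was the sole gene past 0.5 in size. Of the 28 genes 18 were below 0, where 36.5% of all 12535 genes tested were below 0, and the median was -0.05 against 0.03 over all genes. This count rested on 1 sample, since leaving out the Fz4+/+ sample of litter 3 gave 9 of 28 and a median of 0.12. The median over all probe sets tested also rose in that fit, to 0.087. The heat map of the genes by array shows that sample as the darkest column.

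**Figure D1:**
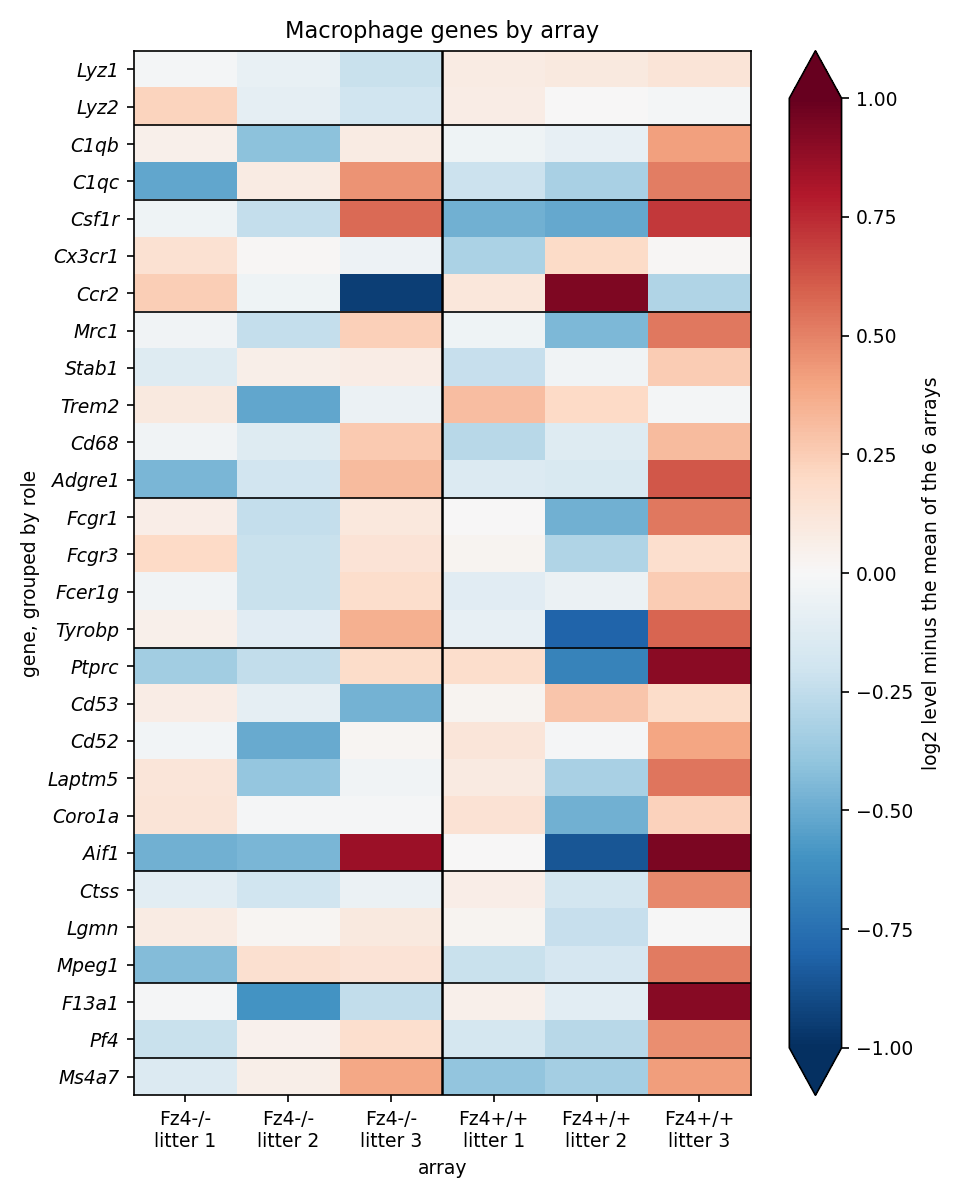
Each cell gives a gene's log2 level on 1 array minus its mean over the 6 arrays, for the 28 macrophage genes tested, with lines between the roles. The Fz4+/+ sample of litter 3 held the highest value of 21 of the 28 genes, and the Fz4+/+ sample of litter 2 the lowest of 10.

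The promoters of these genes were compared through the letters GAGGAA, the core that PU.1 and other Ets factors bind, on either strand. RefSeq's promoter table for GRCm38.p6 held 26 of the 34 genes and not C1qa, Csf1r, Cd14, Adgre1, Tyrobp, Itgb2, Cd52 and Spi1. In the 250 bases before the start, 16 of the 26 (61.5%) held this core, against 23.1% of all 27025 genes of the table. The RUNX core TGTGGT was in 5 of the 26 (19.2% against 14.2%) and the AP-1 motif TGANTCA in 2 (7.69% against 6.87%). Each motif was searched by itself on both strands, so matches of different motifs may overlap, and a match of letters is no binding site. Below are the 250 bases for Mrc1, Aif1 and Ms4a7, which were picked from the table by their rank in the fit between litters. Aif1 passed the filter on low values only through litter 3, so its rank is no result. The others are F13a1, with the largest difference between genotypes, and the tandem pair Lyz1 and Lyz2. Capitals mark GAGGAA or its complement TTCCTC.
Mrc1, chr2:14229164-14229413, plus strand: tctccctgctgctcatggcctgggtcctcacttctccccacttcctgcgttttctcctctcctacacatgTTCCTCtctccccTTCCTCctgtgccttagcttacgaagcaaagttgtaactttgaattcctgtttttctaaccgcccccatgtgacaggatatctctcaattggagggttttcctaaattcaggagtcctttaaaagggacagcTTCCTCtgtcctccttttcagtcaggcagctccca
Aif1, chr17:35176053-35176302, minus strand: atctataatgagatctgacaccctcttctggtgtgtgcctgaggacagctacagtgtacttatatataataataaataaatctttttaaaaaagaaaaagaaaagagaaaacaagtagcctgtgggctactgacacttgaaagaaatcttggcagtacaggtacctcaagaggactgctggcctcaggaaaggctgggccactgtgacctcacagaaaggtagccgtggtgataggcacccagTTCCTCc
Ms4a7, chr19:11336147-11336396, minus strand: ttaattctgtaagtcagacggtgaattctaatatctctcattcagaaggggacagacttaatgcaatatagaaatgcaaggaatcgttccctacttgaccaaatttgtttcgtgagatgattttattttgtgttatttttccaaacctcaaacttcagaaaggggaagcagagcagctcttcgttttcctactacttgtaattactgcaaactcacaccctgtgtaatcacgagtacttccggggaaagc
F13a1, chr13:37050245-37050494, minus strand: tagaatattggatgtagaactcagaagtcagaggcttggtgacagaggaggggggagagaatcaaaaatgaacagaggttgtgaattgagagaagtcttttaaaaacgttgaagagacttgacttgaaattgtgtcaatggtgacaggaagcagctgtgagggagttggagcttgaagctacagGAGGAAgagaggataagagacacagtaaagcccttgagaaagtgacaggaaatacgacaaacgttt
Lyz1, chr10:117292869-117293118, minus strand: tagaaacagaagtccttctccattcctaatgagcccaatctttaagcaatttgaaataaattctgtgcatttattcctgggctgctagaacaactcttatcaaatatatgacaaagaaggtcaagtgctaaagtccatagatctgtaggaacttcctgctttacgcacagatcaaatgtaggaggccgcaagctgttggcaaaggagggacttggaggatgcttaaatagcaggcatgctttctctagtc
Lyz2, chr10:117282273-117282522, minus strand: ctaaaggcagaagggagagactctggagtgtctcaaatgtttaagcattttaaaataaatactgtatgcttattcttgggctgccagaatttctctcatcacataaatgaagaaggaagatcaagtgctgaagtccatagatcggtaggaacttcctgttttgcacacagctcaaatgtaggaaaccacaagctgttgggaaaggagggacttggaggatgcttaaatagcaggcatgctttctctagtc
Mrc1 held the core 3 times, starting 180, 167 and 35 bases before the start. Aif1 held it once, 7 bases before the start, and F13a1 also once. Ms4a7, Lyz1 and Lyz2 held none in this window. An alignment of the Lyz1 and Lyz2 promoters was identical in 205 of its 260 columns (78.8%), and the 2 genes are direct neighbours in RefSeq.

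The lysozymes Lyz1 and Lyz2 encode secreted enzymes that break bacterial walls, and Lyz2 is a widely used myeloid marker. Lyz1 read 8.57, 8.51 and 8.37 in Fz4-/- and 8.67, 8.68 and 8.72 in Fz4+/+, a difference of -0.21 ± 0.10 (SE). It was the 1 gene of the 28 whose genotypes did not overlap, lower in each Fz4-/- sample. Among all genes 1.25% were lower in this way and 2.56% higher, where none of the 28 was higher. Its exact permutation p was 0.1, the smallest that 3 against 3 can give, and the spread within each genotype was small (SD 0.10 in Fz4-/- and 0.03 in Fz4+/+, n = 3). Its other probe sets differed by -0.18 and, near background, by -0.14. Lyz2 read 8.10, 7.78 and 7.68 against 7.95, 7.88 and 7.85, with overlapping genotypes and a difference of -0.04 ± 0.14. The brightest Lyz1 probe set is of the kind whose probes may also bind other genes, so the reads of this pair are uncertain.

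The C1q genes encode the chains of the first complement component, which tags dying cells and synapses for removal, and lie side by side in RefSeq. C1qb read 9.06, 8.60 and 9.09 in Fz4-/- and 8.96, 8.92 and 9.42 in Fz4+/+, a difference of -0.19 ± 0.20. Its other probe sets gave -0.02 and 0.02. C1qc read 6.34, 6.94 and 7.31 against 6.65, 6.54 and 7.37 and differed by 0.01 ± 0.33. Both genes overlapped between genotypes and were highest in litter 3, where C1qc was above litter 1 by 0.85 ± 0.20 (limma's adjusted p of 0.106). C1qa, below the filter, also read highest in litter 3, at 6.41 and 6.01 against 5.61 to 5.76 elsewhere.

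Of the receptors for growth factors and chemokines, Csf1r binds the survival signals Csf1 and Il34. It read 8.94, 8.74 and 9.55 in Fz4-/- and 8.50, 8.47 and 9.69 in Fz4+/+. The genotypes overlapped, with a difference of 0.19 ± 0.39 (± 0.14 with the litter as a block). Both samples of litter 3 lay above the other 4. Litter 3 exceeded litter 1 by 0.90 ± 0.18 and litter 2 by 1.02 ± 0.18 (limma's adjusted p of 0.0884 and 0.142). The 2 other probe sets of Csf1r, at 6.37 to 7.55 and 6.25 to 6.83, were also highest in both samples of litter 3. Ccr2, the receptor that guides monocytes out of blood-forming tissue, ran the other way. It read 6.43, 6.14 and 5.24 in Fz4-/- and 6.29, 7.11 and 5.89 in Fz4+/+, and was lower in both samples of litter 3 than in the other 4. Among all genes 11.4% were lower in this way, and of the 28 genes Ccr2 alone. Its difference between genotypes was -0.50 ± 0.42, and its other 3 probe sets, near background, gave 0.01, -0.07 and 0.17. Cx3cr1, the fractalkine receptor that marks yolk sac macrophages and microglia, stayed within 5.60 and 6.11 with no order by litter or genotype.

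Scavenger and recognition receptors take up debris and lipids. Trem2, a lipid receptor that signals through Tyrobp, read 6.28, 5.66 and 6.13 in Fz4-/- and 6.49, 6.38 and 6.16 in Fz4+/+. It was lower in Fz4-/- in each litter, though the Fz4-/- sample of litter 1 lay above the Fz4+/+ sample of litter 3, and differed by -0.32 ± 0.19. Adgre1, which encodes the macrophage surface protein F4/80, read 6.13, 6.40 and 6.91 against 6.45, 6.44 and 7.21. Its differences within litters were -0.32, -0.04 and -0.30. Litter 3 exceeded litter 1 by 0.77 ± 0.13 (limma's adjusted p of 0.0827). Mrc1, the mannose receptor, read 8.50, 8.29 and 8.77 against 8.49, 8.09 and 9.06, with a genotype difference of -0.02 ± 0.27. Stab1, which endothelium also expresses, differed by 0.01 ± 0.15 and the lysosomal glycoprotein gene Cd68 by 0.07 ± 0.20. Mrc1, Stab1, Cd68 and Adgre1 were each higher in both samples of litter 3 than in the other 4. Cd163, the haemoglobin scavenger receptor, and Cd14, the endotoxin co-receptor, were below the filter, at 4.82 to 6.20 and 4.24 to 5.26.

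The Fc receptors Fcgr1 and Fcgr3 bind antibody, and Fcer1g and Tyrobp are the small adaptors that relay the signals of many myeloid receptors. Fcgr3 read 7.59, 7.17 and 7.53 in Fz4-/- and 7.42, 7.09 and 7.56 in Fz4+/+. Both samples of litter 2 were the lowest, and the genotypes differed by 0.07 ± 0.18. Tyrobp read 8.08, 7.91 and 8.38 against 7.95, 7.23 and 8.61, and the Fz4+/+ sample of litter 2 lay below all others. Its differences within litters were 0.13, 0.69 and -0.22, so the sign was not the same in each. Fcgr1 and Fcer1g differed by -0.04 ± 0.27 and -0.06 ± 0.16. The integrin genes Itgam and Itgb2, which form the complement receptor Mac-1, read 3.30 to 3.81 and 3.49 to 4.59, below the filter. The values of Itgam did not overlap (3.49, 3.39 and 3.30 against 3.54, 3.81 and 3.55), though at this level RMA compresses differences and no test was made.

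Among genes of the leukocyte membrane and cytoskeleton, Ptprc encodes CD45, the phosphatase of all nucleated blood cells. It read 5.95, 6.05 and 6.48 in Fz4-/- and 6.47, 5.63 and 7.20 in Fz4+/+, with differences of -0.52, 0.41 and -0.72 within litters. Its other probe set, below the filter, ran the opposite way. It read 6.22, 5.81 and 4.88 against 5.89, 5.60 and 4.69, lowest in both samples of litter 3 and higher in Fz4-/- in each litter. The tetraspanin gene Cd53 read 8.16, 8.0 and 7.61 against 8.11, 8.36 and 8.27, a difference of -0.33 ± 0.17. Its Fz4-/- sample of litter 3 was the lowest of the 6 and its litter 1 pair nearly equal. Cd52, a small surface glycoprotein gene, read 7.23, 6.75 and 7.28 against 7.38, 7.25 and 7.65. It was lower in Fz4-/- in each litter, with differences of -0.15, -0.50 and -0.38 and a mean of -0.34 ± 0.19. Blocking by litter, limma gave Cd52 an unadjusted p of 0.0320. Laptm5, a lysosomal protein gene of blood cells, differed by -0.20 ± 0.25 on its brightest probe set and by 0.08 on the other that passed the filter. Coro1a, an actin regulator, differed by 0.07 ± 0.21. Aif1, which encodes the calcium-binding protein Iba1, read 5.45, 5.47 and 6.78 against 5.93, 5.07 and 6.86. Its genotypes overlapped fully, and both samples of litter 3 lay above the other 4. Aif1 passed the filter only through litter 3, since the mean of its other 4 samples was 5.48, so its difference between litters is given without a test.

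The remaining genes serve digestion, transcription and secretion. Ctss, a lysosomal cysteine protease, read 8.32, 8.22 and 8.36 in Fz4-/- and 8.48, 8.24 and 8.90 in Fz4+/+, lower in each litter and by -0.24 ± 0.18 on average. Lgmn, the asparagine-specific protease legumain, read 8.48, 8.42 and 8.50 against 8.43, 8.17 and 8.40, a difference of 0.13 ± 0.11. It was the sole gene of the 28 that was higher in Fz4-/- in each litter, where 15.5% of all genes were. Mpeg1, which encodes the pore-forming perforin-2, differed by -0.09 ± 0.26. Spi1 read 5.11 to 5.52 on all arrays and was not tested. F13a1, the A subunit of coagulation factor XIII, which tissue macrophages make, read 7.55, 6.97 and 7.32 against 7.62, 7.46 and 8.47. It was lower in each litter, with differences of -0.07, -0.49 and -1.16 and a mean of -0.57 ± 0.30. Leaving out the Fz4+/+ sample of litter 3 gave -0.26. Pf4, a chemokine gene of platelets and of some macrophages, differed by -0.01 ± 0.23. Ms4a7, a gene of the tetraspan Ms4a family, read 6.66, 6.85 and 7.18 against 6.40, 6.46 and 7.21, a difference of 0.21 ± 0.26.

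Within litters the genes lay on both sides of 0 in litters 1 and 2, and nearly all were lower in Fz4-/- in litter 3. In litter 1, 12 of 28 were lower in Fz4-/- (48.3% of all genes were) and the median was 0.04, against 0.006 over all genes. In litter 2 these were 13 of 28 (28.6% of all genes) and 0.04, below the median of 0.12 over all genes. In litter 3, 27 of 28 were lower, where 53.8% of all genes were, and the median was -0.26 against -0.01 over all genes. Lgmn was the exception in litter 3, at 0.10. Litter 3 had 1 sample of each genotype, so no test can be made within it. Over all litters Lyz1, Trem2, Adgre1, Cd52, Ctss and F13a1, 6 of the 28, were lower in each litter, where 7.26% of all genes were. The plot of differences within each litter shows the shift of the litter 3 points to the left.

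**Figure D2:**
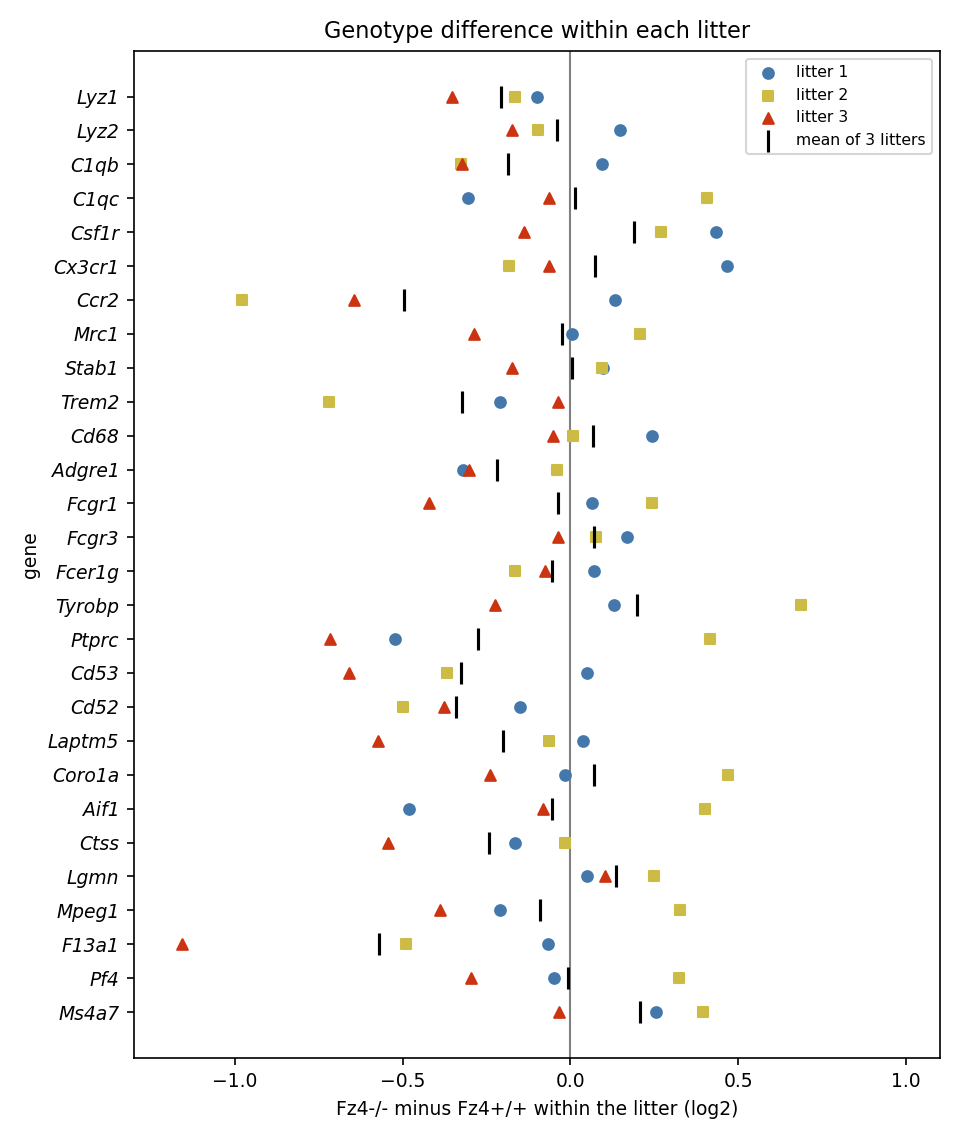
Points give Fz4-/- minus Fz4+/+ (log2) within each of the 3 litters and black bars the mean, for the 28 genes tested. The litter 3 points of 27 genes lie below 0, from F13a1 at -1.16, while those of litters 1 and 2 lie on both sides.

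The litter took more of the variance than the genotype for most of the genes, as it did for most of all genes tested. The litter took a median of 72.2% of a gene's variance over the 6 arrays and the genotype 5.07%, against 67.1% and 6.05% over all genes. For 24 of the 28 the litter's share was the larger, a count that was not made over all genes. The litter has more groups than the genotype, which by itself favours its share. limma's F test between litters called none of the 28 and 0 of the 27022 probe sets, and 10 of the 28 (35.7%) had an unadjusted p under 0.05, against 23.0% of all probe sets. Aif1 is among the 10, and without it the count was 9 of 27, with a lowest adjusted p of 0.147. Leaving out litter 3's Fz4+/+ sample lowered the count to 2 of 28. Leaving out litter 1's Fz4-/- sample lowered it to 5, and its Fz4+/+ sample to 6. When the Fz4-/- sample of litter 2 was left out the test called 1506 probe sets, among them Ptprc at limma's adjusted p of 0.0444, and Aif1, which the filter let in through litter 3. When the Fz4+/+ sample of litter 2 was left out it called 326, and none of the 28.

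Litter 3 had the highest mean for 20 of the 28 genes (71.4%), close to the 65.3% of all genes. Both of its samples were above the other 4 for 14 of the 28, against 41.8% of all genes, so this order is common on these arrays. Without Aif1 it was 13 of 27. The 14 were C1qb, C1qc, Csf1r, Mrc1, Stab1, Cd68, Adgre1, Fcgr1, Fcer1g, Tyrobp, Ptprc, Aif1, Pf4 and Ms4a7. Litter 3 was above litter 1 for 21 of the 28 (71.8% of all genes), by a median of 0.28 against 0.16 over all genes. It was above litter 2 for 23 of the 28 (also 71.8% of all genes), by a median of 0.43 against 0.16. After quantile normalization these medians were 0.15 and 0.26, against 0.07 and 0.08 over all genes. Leaving out litter 3's Fz4+/+ sample gave 0.14 and 0.33, against 0.10 and 0.11 over all genes. Leaving out its Fz4-/- sample gave 0.47 and 0.59, against 0.20 and 0.21. With litter 1's Fz4+/+ sample left out, the median over litter 1 was 0.18, close to the 0.17 over all genes. Litter 2 was above litter 1 for 10 of the 28 (52.7% of all genes), and its median difference from litter 1 was -0.17 against 0.01. It shrank to -0.017 when litter 1's Fz4-/- sample was left out (-0.006 over all genes), and to -0.074 when litter 2's Fz4+/+ sample was (0.064 over all genes). In the Fz4+/+ samples alone litter 3 exceeded litter 1 by a median of 0.47 (24 of 28 genes higher), and in the Fz4-/- samples by 0.05 (18 of 28). From litter 2 the medians were 0.68 and 0.35 (23 and 21 of 28). These medians and counts within a genotype were not made over all genes, so they cannot be called particular to the 28.

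**Figure D3:**
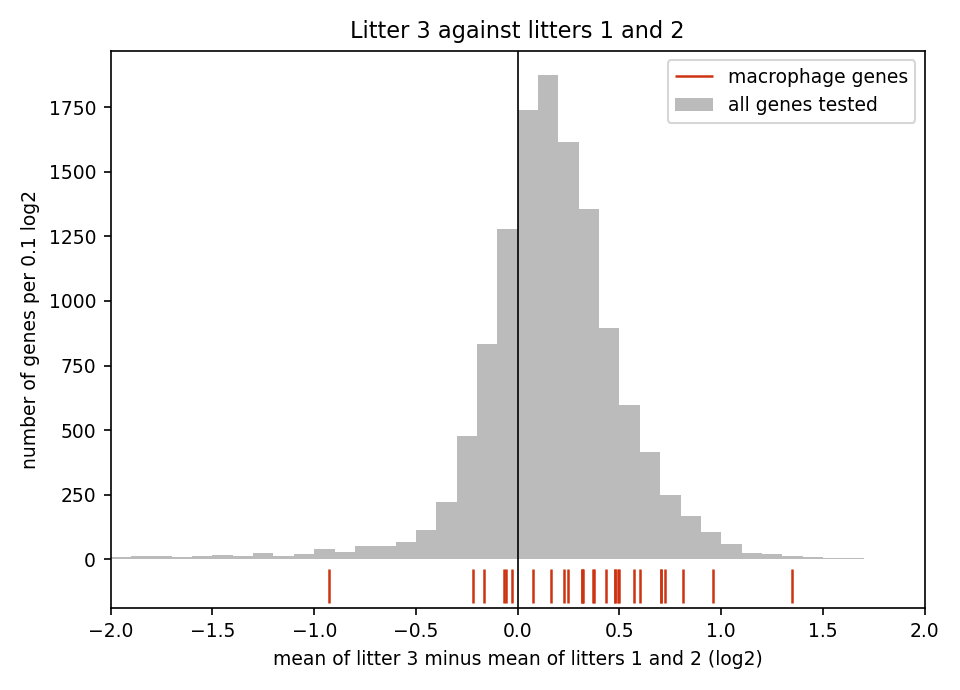
Grey bars count all 12535 genes tested by the mean of litter 3 minus the mean of litters 1 and 2 (log2, bins of 0.1), and red ticks mark the 28 macrophage genes. Most genes of both kinds lie above 0, with Aif1 farthest to the right and Ccr2 farthest to the left among the ticks.

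Across the 6 arrays the median correlation was 0.48 over the 378 pairs of the 28 genes, and 277 of the pairs (73.3%) were above 0. Over all pairs of the genes tested the median was 0.24 and 61.2% were above 0. Each pair shares its arrays, litters and normalisation, so this is a description of 6 arrays. The correlation of a gene with the mean of the other 27 was over 0.8 for 14 genes, where 16.7% of all genes reached that with the mean of the 28, led by Mrc1 at 0.96, Fcgr1 at 0.93, Ctss at 0.92 and Ptprc at 0.91. It was below 0 for 4, Ccr2 at -0.64, Lyz2 at -0.20, Cx3cr1 at -0.18 and Cd53 at -0.09. Lyz1 at 0.15 and Trem2 at 0.01 followed the others little.

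Erythroid, neutrophil and liver genes also peaked in the Fz4+/+ sample of litter 3. That sample was above the mean of the arrays by 0.38 for the 28 macrophage genes, 0.77 for 8 erythroid genes, 0.92 for 3 neutrophil genes and 0.96 for 8 liver genes. It held the highest value of 75.0% of the macrophage genes, against 37.1% of all genes. In the Fz4-/- sample of litter 3 these lists stood at 0.08, -0.02, 0.60 and -0.55. Within litter 3, 7 of 8 erythroid and 8 of 8 liver genes were lower in Fz4-/-, with medians of -0.69 and -1.07. Antigen presentation (0.26), myeloid signalling (0.18) and microglia genes (0.16) also peaked in the Fz4+/+ sample of litter 3. So did engulfment genes (0.15) and macrophage growth factors and chemokines (0.08). Mast cell, lymphocyte and platelet lists were highest elsewhere, and stood at -0.03, 0.09 and 0.20 in that sample. Markers of tissue-resident macrophages (-0.04) and macrophage transcription factors (-0.09) were below their mean in that sample. The part of blood or liver in the macrophage values was not tested. In the Fz4-/- and Fz4+/+ samples of litter 1 the liver genes stood at 0.53 and 0.49 and the macrophage genes at -0.06 and -0.05. The liver gene Alb read 8.39, 6.41 and 6.34 in Fz4-/- and 8.37, 6.64 and 8.88 in Fz4+/+, so 3 samples were high and 3 low. The markers of liver macrophages Vsig4, Cd5l and Clec4f read 2.67 to 2.84, 3.26 to 4.04 and 5.19 to 5.49, below the filter. On probe sets for the ends of a transcript, a sign of RNA quality, 3' minus 5' signal was 0.86, 0.75 and 0.64 for actin in Fz4-/- and 0.77, 0.90 and 0.76 in Fz4+/+. For Gapdh it was 0.86, 0.76 and 0.75 against 0.77, 0.90 and 0.90. The Fz4+/+ samples of litters 2 and 3, which held the lowest and the highest macrophage levels, both read 0.90 for Gapdh. For actin they read 0.90 and 0.76, and a link of RNA quality to the macrophage levels was not tested.

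**Figure D4:**
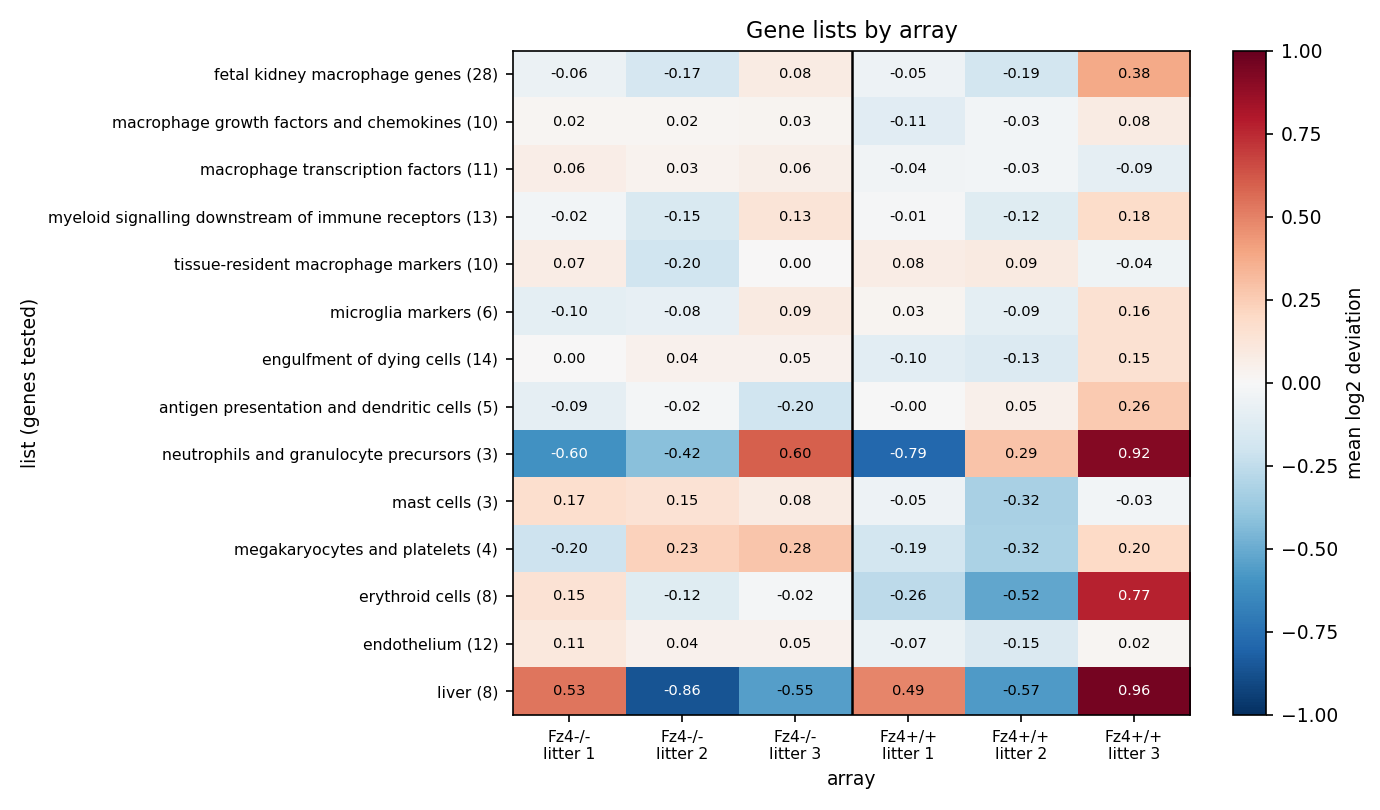
Cells give the mean log2 deviation of each list's tested genes from their own mean over the 6 arrays, with the number of genes in brackets, for lists with at least 3 tested genes. The macrophage, erythroid, neutrophil and liver lists are highest in the Fz4+/+ sample of litter 3, at 0.38, 0.77, 0.92 and 0.96. The antigen presentation, myeloid signalling, microglia, engulfment and growth factor lists also peak there, at 0.26, 0.18, 0.16, 0.15 and 0.08.

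Other genes of macrophage biology held no gene that passed the test between genotypes or between litters. Of 10 tested growth factor and chemokine genes 7 were higher in Fz4-/-, with a median of 0.03. Csf1 read 6.84, 6.68 and 7.13 in Fz4-/- and 6.65, 6.77 and 7.16 in Fz4+/+, highest in both samples of litter 3 as its receptor was. Il34, the other ligand, was below the filter at 3.74 to 4.63. Csf2ra, a receptor chain for GM-CSF, differed by 0.42 and Cxcr4 by -0.17, with limma's unadjusted p of 0.160 and 0.387. All 11 tested transcription factor genes were above 0, by a median of 0.06 against 0.03 over all genes, of which 36.5% were below 0. Among the 11, Irf8, which myeloid cells need, differed by 0.47. Irf8 read 5.94, 6.01 and 6.57 against 5.27, 5.57 and 6.29, higher in Fz4-/- in each litter, while Tfec read 7.05, 6.73 and 6.09 against 7.10, 6.61 and 5.59, lowest in both samples of litter 3 (limma's unadjusted F p of 0.00346).

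Of 13 tested genes of myeloid signalling 7 were lower in Fz4-/-, with a median of -0.0041. Nckap1l, an actin regulator of blood cells, differed by -0.41 (limma's unadjusted p of 0.0646), and 7 of the 13 had both samples of litter 3 above the other 4, where 41.8% of all genes did. The phosphatase gene Ptpn6 was higher in litter 3 than in litter 1 by 0.89. Among 10 tested genes of tissue-resident macrophages 6 were lower in Fz4-/-, with a median of -0.11, among them Folr2, a folate receptor of resident macrophages, at -0.24 (unadjusted p of 0.0806). Ly86 read 7.61, 5.85 and 5.83 against 7.80, 6.78 and 6.20, high in litter 1, whereas Ms4a6d read 5.92, 5.82 and 6.84 against 6.23, 6.11 and 6.76, high in litter 3. The list thus held genes that ran with the 28 and genes that ran against them. Among microglia genes 6 were tested and 4 of them were above 0 (median 0.04), while Siglech was at -0.37 (unadjusted p of 0.0687). Engulfment of dying cells was represented by 14 tested genes, 11 of them above 0 (median 0.10), and Mertk, an engulfment receptor, read 8.23, 8.33 and 8.79 against 8.28, 8.31 and 8.77. The sole tested NADPH oxidase gene, Cyba, differed by 0.17.

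Markers of other immune cells were mostly below the filter. Of antigen presentation and dendritic cells 5 genes were tested, 4 of them lower in Fz4-/-, and Cd74, the invariant chain, differed by -0.47 (limma's unadjusted p of 0.0857). Neutrophil genes numbered 3, S100a8 at -0.53, S100a9 at -0.45 and Prtn3 at 0.13. Of mast cell genes 3 were tested and all were above 0, and of lymphocyte genes 2, Cd79a at -0.17 and Cd79b at 0.05. Of 4 tested platelet genes 3 were above 0, whereas Itga2b, the platelet integrin gene, was lower at -0.31 with limma's unadjusted p of 0.0398 and an adjusted p of 0.999988. Of 8 erythroid genes 5 were above 0 (median 0.01), of 12 endothelial genes 9 (median 0.14), and of 8 liver genes none (median -0.48).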

How the data were processed

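Whole kidneys at embryonic day 13.5 were measured on 6 Affymetrix MOE430.2 arrays. The deposited values are log2 expression per probe set, made by the authors. RMA is the tool named, without a version, per the submitters' processing notes. Values were used as deposited. RMA equalises arrays and compresses differences near background. No detection calls were made, and no sample column was unused. Probe sets were named by the platform annotation (1 gene for 34958 of 45101, several for 932, none for 9211). Entrez numbers of 34754 matched RefSeq of GRCm38.p6.

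After 64 control probe sets were left out, 27022 at or above the 40th percentile of the mean were tested with limma 3.58.1 in R 4.3.3 (lmFit, eBayes, two-sided, Benjamini-Hochberg, threshold 0.05), with genotype as the sole term. Litters were compared with genotype as a term, by the F test and pairwise contrasts. The fits were tested on simulated data. Most simulated probe sets had no litter difference, so the genotype fit was not checked under litter differences like those seen here. P-values weigh a difference against the spread between these samples, which in the main genotype fit includes the spread between litters. The labels' numbers mark litters and were taken to pair samples. Deviations from the genotype means correlated by 0.577, 0.178 and 0.809 in litters 1 to 3, though the Fz4-/- sample of litter 1 correlated by 0.609 with the Fz4+/+ sample of litter 2. Members and 15 other lists (203 genes, 187 with a probe set) were chosen with earlier results of these data known. All members are named. Array values are given for those without overlap between genotypes, with the smallest p of their role, or listed first. Those of C1qc, Mrc1, Adgre1, Fcgr3, Cd52, Aif1, Lgmn, C1qa and Itgam, and of genes outside the members, were added after the values were seen. Of each other list, genes among those with the smallest genotype or litter p are named, with Csf1, Il34, Alb, Cyba and liver macrophage markers added after the values were seen. Alternatives changed the litter term, normalisation, filter, probe set rule, array weights and samples.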

Additional observations from a re-analysis of the deposited data

How the results depend on the processing

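With the litter as a replicate block the count of probe sets with an unadjusted p under 0.05 between genotypes was 841 in place of 239, and as a random replicate block 940. Neither pairing changed a call after adjustment. The count was 531 with no filter on low values, 141 with the filter at the 60th percentile, 1102 without litter 3, 6084 with array weights, and 124 to 1725 when single samples were left out. Array weights called 2 probe sets between genotypes, and no tested macrophage gene. The number of tested macrophage genes lower in Fz4-/- was 10 with the filter at the 60th percentile, which tested 16 of them, and 9 to 24 when single samples were left out. Between litters, 6 of the genes had an unadjusted p under 0.05 after quantile normalization, and 3 probe sets were called with the filter at the 60th percentile. Leaving out single samples gave 0 to 1506 called probe sets, 0 to 2 called macrophage genes, 2 to 13 with an unadjusted p under 0.05, and medians of litter 2 minus litter 1 from -0.22 to -0.017. The sign of the genotype difference turned without litter 3 for Lyz2 (0.025), Mrc1 (0.11), Fcgr1 (0.15), Mpeg1 (0.058) and Pf4 (0.14), after quantile normalization for C1qc (-0.012) and Stab1 (-0.034), and with array weights for Fcgr3 (-0.17), Coro1a (-0.063), Mpeg1 (0.29) and Pf4 (0.19). Leaving out single samples turned it for 18 of the 28 genes, none of them called, with these ranges: Adgre1 -0.43 to 0.035, Aif1 -0.50 to 0.40, C1qc -0.21 to 0.28, Cd68 -0.058 to 0.24, Coro1a -0.15 to 0.20, Csf1r -0.050 to 0.59, Cx3cr1 -0.066 to 0.19, Fcer1g -0.16 to 0.055, Fcgr1 -0.29 to 0.22, Fcgr3 -0.064 to 0.20, Laptm5 -0.41 to 0.018, Lyz2 -0.16 to 0.047, Mpeg1 -0.23 to 0.15, Mrc1 -0.25 to 0.23, Pf4 -0.15 to 0.22, Ptprc -0.67 to 0.11, Stab1 -0.11 to 0.13, Tyrobp -0.15 to 0.54. The other 10 kept their sign under each alternative that tested them. Ccr2, Cd52, Trem2 and Ms4a7 were not tested with the filter at the 60th percentile. Causes of these shifts were not tested. The 6 genes near background have no test, and 3 samples per genotype limit what could be called.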
